A study of Mus musculus with 8 samples.

Results

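Chia1, Chil1, Chil3 and Chil4 are the 4 genes described here, of 25124 in the deposited table, and they were taken by symbol as members of the chitinase family. They were measured by RNA-seq in cells that had been sorted from mouse lung and labelled airway epithelial cells, the cells that line the conducting airways. The mice were C57BL/6, of the genotype STAT3-cKO (STAT3, a factor that carries cytokine signals to the nucleus, conditionally deleted; cKO here) or STAT3-WT (WT here), and each genotype had been given house dust mite (HDM), an allergen, or PBS. The 4 groups are cKO HDM, WT HDM, cKO PBS and WT PBS, with 2 libraries each. The cell type in which STAT3 was deleted, the driver of the deletion, the schedule of HDM and the animals' age are not stated in the labels. Nor do the labels tie replicates to separate mice, so p-values measure the spread between libraries alone, and that spread may be technical.

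Chitinases cleave chitin, the polymer that stiffens the shells of mites and insects and the walls of fungi. Chia1, acidic mammalian chitinase, is an active enzyme that is secreted into the airways of mice. Chil1, also called BRP-39 and the mouse counterpart of human YKL-40, and Chil3 and Chil4, also called Ym1 and Ym2, belong to the same family of proteins but lack the catalytic activity, and are known as chitinase-like proteins. All 4 are known to be abundant in allergic mouse lungs, where the type 2 cytokines IL-4 and IL-13, acting through STAT6, raise the transcripts of the enzyme and of the Ym proteins. Chil3 is also a product of alveolar macrophages.

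In mm10, Chia1 (chromosome 3, 106113229 to 106132120, plus strand), Chil3 (106147554 to 106167564, minus strand) and Chil4 (106201490 to 106219507, minus strand) lie next to each other on chromosome 3. Chil1 lies on chromosome 1 (134182176 to 134190181, plus strand). All are annotated as protein-coding. Chil3 and Chil4 have transcripts of 1539 bases each, and their coding sequences were identical at 95.4% of 1194 aligned bases, against 77.0% of 1190 between Chia1 and Chil3 and 64.3% of 1084 between Chil1 and Chil3. Reads of Chil3 and Chil4 can therefore be confused where the transcripts are the same. Of all windows of 50 bases in either transcript 18.5% occurred in the other as well, of windows of 36 bases 26.8% and of windows of 100 bases 3.75%. The read length, and what the counting did with reads that fit more than 1 gene, are not stated in the labels. The longest stretch that is identical in both coding sequences has 136 bases, from position 987 to 1122 of each coding sequence, and is shown because reads within it cannot be assigned to either gene.
Chil3 and Chil4, shared coding stretch: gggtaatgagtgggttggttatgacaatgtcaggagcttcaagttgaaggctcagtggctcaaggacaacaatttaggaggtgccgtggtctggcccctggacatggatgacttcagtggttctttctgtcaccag

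The RefSeq promoter windows of GRCm38.p6, from 250 bases before to 50 after each annotated gene start, are shown for the 4 genes because all of them responded to HDM. Capitals mark the motifs TTCNNNGAA and TTCNNNNGAA, spacings that STAT proteins can bind, and TATAAAA, known from core promoters, all searched on both strands; none of the matches overlapped.
Chia1 (chr3:106113132-106113431, plus strand): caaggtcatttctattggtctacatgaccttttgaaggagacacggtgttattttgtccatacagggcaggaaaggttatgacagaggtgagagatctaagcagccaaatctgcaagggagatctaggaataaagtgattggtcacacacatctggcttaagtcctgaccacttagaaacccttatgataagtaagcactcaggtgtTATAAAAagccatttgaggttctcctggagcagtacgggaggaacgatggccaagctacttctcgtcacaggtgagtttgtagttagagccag
Chil1 (chr1:134181906-134182205, plus strand): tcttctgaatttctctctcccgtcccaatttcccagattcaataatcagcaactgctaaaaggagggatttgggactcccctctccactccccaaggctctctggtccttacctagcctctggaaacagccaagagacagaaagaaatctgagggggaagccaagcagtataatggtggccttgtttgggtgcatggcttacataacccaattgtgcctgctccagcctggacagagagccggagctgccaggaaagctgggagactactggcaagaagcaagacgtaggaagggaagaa
Chil3 (chr3:106167515-106167814, minus strand): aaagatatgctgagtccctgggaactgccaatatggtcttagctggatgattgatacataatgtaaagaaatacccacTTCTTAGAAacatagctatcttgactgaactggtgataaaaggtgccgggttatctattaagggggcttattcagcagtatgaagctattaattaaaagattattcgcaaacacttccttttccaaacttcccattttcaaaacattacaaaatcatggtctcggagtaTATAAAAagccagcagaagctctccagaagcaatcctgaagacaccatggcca
Chil4 (chr3:106219430-106219729, minus strand): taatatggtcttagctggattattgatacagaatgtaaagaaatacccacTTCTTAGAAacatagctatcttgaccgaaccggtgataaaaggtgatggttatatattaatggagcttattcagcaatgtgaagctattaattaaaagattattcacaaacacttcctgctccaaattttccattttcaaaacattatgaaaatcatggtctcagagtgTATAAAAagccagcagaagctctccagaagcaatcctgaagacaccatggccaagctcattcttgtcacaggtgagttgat
TTCNNNGAA was found as TTCTTAGAA in the windows of Chil3 and Chil4, 172 bases before the annotated start of Chil3 and 200 before that of Chil4, and 8.3% of all 32851 promoter windows held that motif. TTCNNNNGAA was in none of the 4 windows and in 6.95% of all windows. TATAAAA was in the windows of Chia1, Chil3 and Chil4 and in 5.48% of all windows, and not in that of Chil1. The Chil3 and Chil4 windows were identical at 92.6% of 271 aligned bases, with the annotated starts lying at different points of the shared sequence. A match to a motif is a description of the letters and does not show binding.

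The libraries held 232556 to 593200 reads in the table, which is shallow, and those of cKO PBS were the shallowest. Values are the authors' normalized counts, with 1 read worth 0.652 to 1.63 of them, so that a library with 0 reads allows up to 3 reads or 1.96 to 4.88 normalized counts, a floor that covers counting error only. Across the 7512 genes tested, replicates correlated with r = 0.77 in cKO HDM and in WT PBS, 0.68 in WT HDM and 0.56 in cKO PBS. The second WT HDM and the first cKO PBS library stood apart from the rest. Stat3 stood at 76.9 and 92.2 normalized counts in cKO HDM, 134 and 157 in WT HDM, 56.9 and 96.5 in cKO PBS, and 75.8 and 40.9 in WT PBS. Its difference of cKO against WT did not pass under HDM (-0.78 ± 0.39, limma adjusted p = 0.549) or PBS (0.41 ± 0.39, limma adjusted p = 0.845), so the genotypes are given as labelled. All 6 epithelial, 13 of 13 club, 11 of 11 measured ciliated and 17 of 17 alveolar type 2 cell markers were detected in each library, and 0 of 6 eosinophil markers in any.

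**Figure D1:**
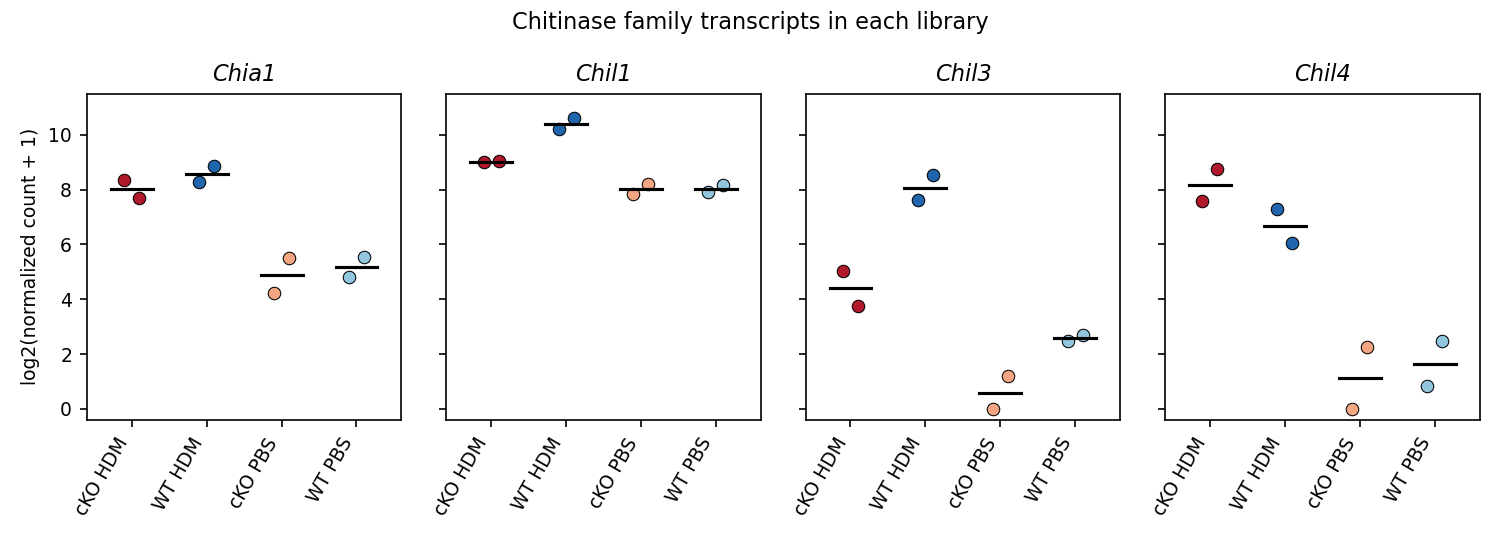
Level of each gene as log2(normalized count + 1) in each library, 2 points per group, with a line at the group mean. Chia1, Chil1, Chil3 and Chil4 were higher in both HDM groups than in both PBS groups; under HDM, Chil1 and Chil3 were lower and Chil4 was higher in cKO than in WT.

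All 4 genes had higher values in each of the 4 HDM libraries than in any of the 4 PBS libraries, which held for 2.26% of the 7512 genes tested. Averaged over genotypes, all 4 rose (limma, adjusted p under 0.05), beside 0.359% of all genes. Chil4 was first of 7512 by size of rise, at 6.02 ± 0.61 log2 units (limma adjusted p = 0.000127), and Chil3 was at rank 3, at 4.64 ± 0.60 (limma adjusted p = 0.00108). Chia1 rose by 3.27 ± 0.31 (limma adjusted p = 0.000107) and Chil1 by 1.69 ± 0.16 (limma adjusted p = 0.000107). Errors of log2 differences are standard errors on the log2(value + 1) scale, which understates the change of low genes. In RNA from a mixed sort, fewer cells of a type and less RNA per cell cannot be told apart. Without the second WT HDM library Chil3 no longer passed (4.41, limma adjusted p = 0.119).

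Chia1, the active chitinase, stood at 321 and 206 normalized counts in cKO HDM, 305 and 464 in WT HDM, 17.9 and 44.4 in cKO PBS, and 26.8 and 45.5 in WT PBS. Its HDM libraries lay far above its PBS libraries in each genotype, and the genotypes overlapped within each treatment. Of all genes, 19.0% were higher without overlap in cKO HDM than in cKO PBS and 21.2% in WT HDM than in WT PBS. The rise was 3.14 ± 0.44 log2 units in cKO (limma adjusted p = 0.0104) and 3.39 ± 0.44 in WT (limma adjusted p = 0.00163). The response differed by -0.25 ± 0.62 (cKO minus WT), with a 95% interval of -1.56 to 1.06 and a limma adjusted p of 0.931. Under HDM the difference of cKO against WT was -0.55 ± 0.44, with a 95% interval of -1.47 to 0.38 (limma adjusted p = 0.762). Equal responses are not shown by these intervals.

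Chil1, the most abundant of the 4 per kilobase of transcript in every library, stood at 506 and 523 normalized counts in cKO HDM, 1171 and 1544 in WT HDM, 228 and 290 in cKO PBS, and 237 and 284 in WT PBS. The cKO HDM libraries lay between those of WT HDM and those of PBS, without overlap, and the genotypes overlapped under PBS. Among all genes 19.0% were higher without overlap in cKO HDM than in cKO PBS, 21.2% in WT HDM than in WT PBS, and 21.9% were lower without overlap in cKO HDM than in WT HDM. Chil1 rose by 2.37 ± 0.23 log2 units in WT (limma adjusted p = 0.00023), the smallest p of all genes in that comparison. In cKO the difference was 1.00 ± 0.23, which did not pass (limma adjusted p = 0.216). Under HDM Chil1 was lower in cKO than in WT, at -1.38 ± 0.23 (limma adjusted p = 0.0144), and under PBS the difference was -0.01 ± 0.23 (limma adjusted p = 0.994), where the 95% interval ran from -0.50 to 0.48. The interaction was -1.37 ± 0.33 (limma adjusted p = 0.33), past the threshold with DESeq2 alone (-1.41, DESeq2 adjusted p = 0.00812), with adjusted p from 0.00812 to 0.94 over the alternatives. A lower Chil1 response in cKO than in WT is therefore not established by the main test.

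Alveolar type 2 cells are known to produce Chil1. Their 17 listed markers summed to 5711 and 6318 normalized counts in cKO HDM, 15590 and 21371 in WT HDM, 6442 and 7534 in cKO PBS, and 5896 and 8272 in WT PBS. Under HDM the mean of each of the 17 was lower in cKO than in WT, as for Chil1, and none was at 0 in any library. For HDM against PBS, 6 of the 17 had a higher mean in cKO, where Chil1 was higher in both HDM libraries, and 17 of 17 in WT. Per 100 normalized counts of that list, Chil1 had 8.86 and 8.28 in cKO HDM, 7.51 and 7.23 in WT HDM, 3.54 and 3.84 in cKO PBS, and 4.01 and 3.43 in WT PBS. This scale was chosen after the values had been seen and carries no test. On it the HDM libraries of each genotype were above all PBS libraries, and those of cKO were above those of WT. The 17 markers did not differ alike in cKO against WT under HDM, from -0.22 ± 0.32 for Nkx2-1 to -3.46 ± 0.25 for Scd1. Scd1 had 194 and 243 normalized counts in cKO HDM and 2243 and 2569 in WT HDM. The order of cKO and WT on this scale therefore depends on the markers listed and is not placed. The part of the alveolar transcripts in the Chil1 results was not tested.

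**Figure D2:**
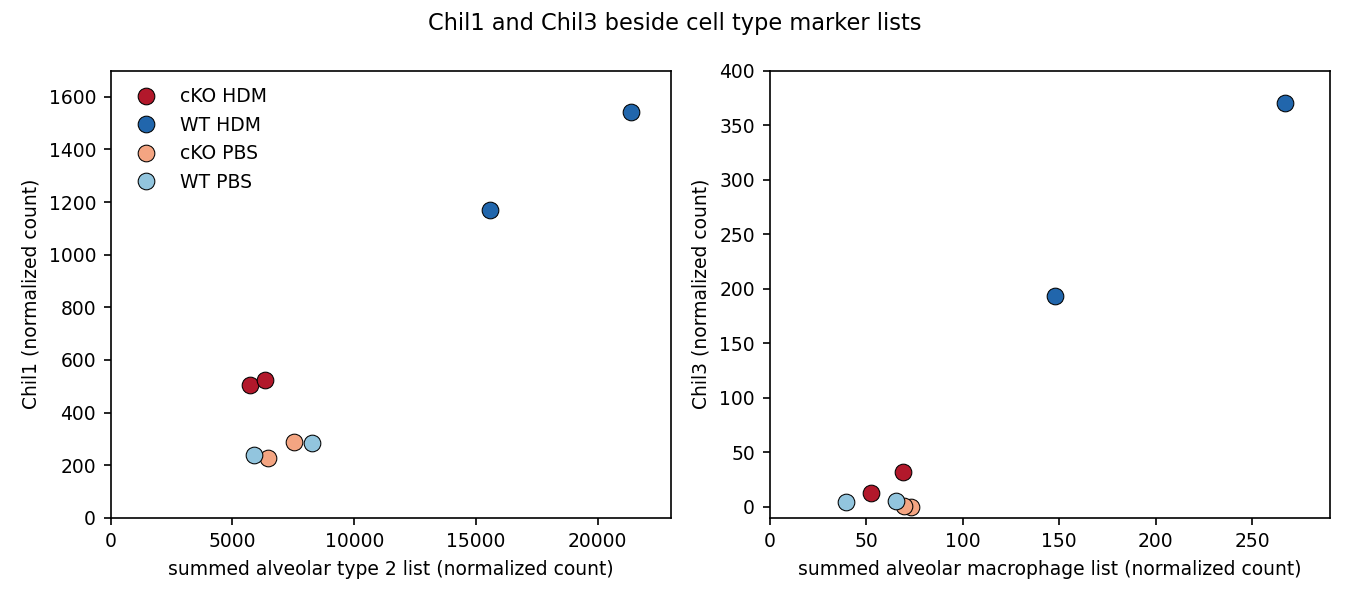
Chil1 against the summed alveolar type 2 list (left) and Chil3 against the summed alveolar macrophage list (right), in normalized counts, 1 point per library. Both WT HDM libraries stand apart on both axes of each panel, and both cKO HDM libraries have more Chil1 (506 and 523) than PBS libraries with a like alveolar sum.

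Chil3, or Ym1, stood at 31.9 and 12.5 normalized counts in cKO HDM, 193 and 370 in WT HDM, 0 and 1.27 in cKO PBS, and 4.59 and 5.46 in WT PBS. The HDM libraries lay above the PBS libraries in each genotype, as for 19.0% of all genes in cKO and 21.2% in WT. Both cKO HDM libraries lay below both WT HDM libraries, as for 21.9% of all genes. Under PBS the listed values of cKO were below those of WT, as for 19.1% of all genes, but the 0 reads of the first cKO PBS library allow up to 4.88 normalized counts, above the 4.59 of the first WT PBS library, so no order of the genotypes is shown there. In reads this was 59 in cKO HDM, 583 in WT HDM, 1 in cKO PBS and 12 in WT PBS, summed over the 2 libraries of a group. The ratio of HDM to PBS from these reads was 32.0 in cKO (exact 95% interval 5.53 to 1287) and 50.6 in WT (28.8 to 98.5), where intervals cover counting error only. With limma, Chil3 rose in WT by 5.48 ± 0.85 log2 units (limma adjusted p = 0.00515), while the 3.80 ± 0.85 in cKO did not pass (limma adjusted p = 0.19). The responses differed by -1.68 ± 1.20 (cKO minus WT, limma adjusted p = 0.73), and the 95% interval ran from -4.22 to 0.87.

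Under HDM the difference in Chil3 of cKO against WT was -3.67 ± 0.85, with a 95% interval of -5.47 to -1.87, and missed the threshold (limma adjusted p = 0.0749). It was past the threshold with edgeR (-3.61, edgeR adjusted p = 0.00147) and DESeq2 (-3.66, DESeq2 adjusted p = 8.81e-09), with adjusted p from 8.81e-09 to 0.904 and values from -4.32 to -3.03 over the alternatives. Without the first or the second cKO PBS library it passed as well (-3.67 each, limma adjusted p = 0.00393 and 0.00763). Under PBS the difference was -2.00 ± 0.85 (limma adjusted p = 0.694), on 13 reads in all.

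The 15 alveolar macrophage markers, listed without Chil3, summed to 68.9 and 52.3 normalized counts in cKO HDM, 148 and 267 in WT HDM, 73.2 and 69.8 in cKO PBS, and 39.8 and 65.5 in WT PBS. Of the 15, 12 had a higher mean in WT HDM than in WT PBS, and Siglecf and Msr1 were at 0 in every library. Ctsk, which did not follow the rest, made up most of the sum in cKO HDM and in both PBS groups, but not in WT HDM. It had 61.0 and 42.4 normalized counts in cKO HDM, 34.6 and 51.6 in WT HDM, 52.1 and 63.5 in cKO PBS, and 33.7 and 57.3 in WT PBS. Car4 had 7.26 and 7.48 in cKO HDM, 39.1 and 36.1 in WT HDM, 11.4 and 3.81 in cKO PBS, and 0.765 and 0 in WT PBS. In cKO HDM 11 of the 15 were at 0 in both libraries, as were 11 in cKO PBS, 9 in WT PBS and 2 in WT HDM. Those of cKO HDM included Marco, Csf1r, Cd68, Adgre1 and Ptprc, while Ctsk, Car4 and Itgax were present in both cKO HDM libraries. In WT HDM Csf1r had 16.3 and 43.8 and Ptprc 12.4 and 37.4 normalized counts, with the higher value in the second library, as for Chil3. The part of macrophage transcripts in the Chil3 difference was not tested.

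Other leukocyte markers were sparse. The 13 neutrophil markers summed to 77.6 and 308 normalized counts in cKO HDM, 278 and 410 in WT HDM, 504 and 475 in cKO PBS, and 292 and 553 in WT PBS, most of it Ltf, and Ly6g, Elane, Mpo and Camp were at 0 in every library. Of the 13, 1 had a higher mean in cKO HDM than in WT HDM, and 7 had a higher mean in WT HDM than in WT PBS. S100a9, a calcium-binding protein abundant in neutrophils, had 0 and 1.66 in cKO HDM, 7.83 and 55.4 in WT HDM, 8.13 and 0 in cKO PBS, and 0 and 0.909 in WT PBS. Its highest value was in the second WT HDM library, as for Chil3, S100a8, Retnlg, Csf3r, Mmp9, Cxcr2 and Ngp. Retnlg, however, had 10.2 and 15.8 in cKO HDM against 2.61 in the first WT HDM library. Ltf was highest under PBS, at 543 in the second WT PBS library, and Mmp8 had reads in the second cKO HDM library alone (5.81). The 9 dendritic cell markers summed to 5.81 and 0 in cKO HDM, 39.8 and 5.16 in WT HDM, 6.51 and 0 in cKO PBS, and 0 in both WT PBS libraries, with Flt3 and Xcr1 at 0 throughout and 5 of 9 higher in mean in WT HDM than in WT PBS. Their part in the Chil3 difference was not tested.

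Chil4, or Ym2, stood at 189 and 434 normalized counts in cKO HDM, 154 and 64.5 in WT HDM, 0 and 3.81 in cKO PBS, and 0.765 and 4.55 in WT PBS. Both cKO HDM libraries were above both WT HDM libraries, as were 21.1% of all genes, and under PBS the genotypes overlapped near the floor. Its reads numbered 784 in cKO HDM, 286 in WT HDM, 3 in cKO PBS and 6 in WT PBS, so the ratio of HDM to PBS was 142 in cKO (exact 95% interval 48.4 to 690) and 49.7 in WT (22.5 to 136). Chil4 rose by 7.04 ± 0.86 log2 units in cKO (limma adjusted p = 0.00451), where it was first of all genes by size and by p, and by 5.01 ± 0.86 in WT (limma adjusted p = 0.0142). These values depend on the number added before taking logs, because the PBS libraries are near 0. The response differed by 2.03 ± 1.22 (cKO minus WT, limma adjusted p = 0.691), and under HDM the difference of cKO against WT was 1.52 ± 0.86 (limma adjusted p = 0.617), where the 95% interval ran from -0.32 to 3.35. A difference of Chil4 between genotypes was thus not established.

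**Figure D3:**
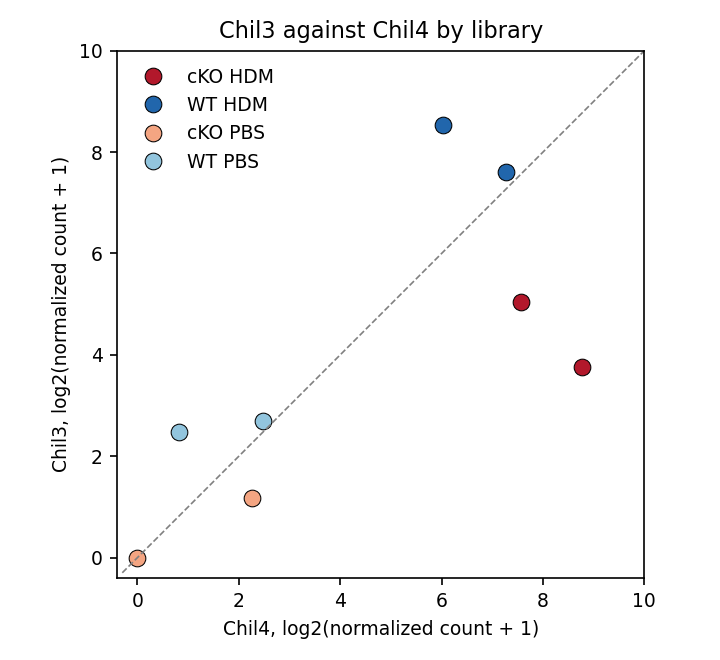
Chil3 against Chil4 in each library, both as log2(normalized count + 1), with a dashed line of equality. Both cKO HDM libraries lie below the line and both WT HDM libraries above it.

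Set side by side, the Ym genes had opposite orders among the HDM libraries. From highest to lowest, Chil3 ran from the second WT library through the first WT and the first cKO library to the second cKO library, and Chil4 ran in exactly the reverse order. Chil3 had 14.4% (exact Clopper-Pearson 95% interval 10.7 to 18.9) and 2.79% (1.57 to 4.56) of the reads of both genes in cKO HDM, against 55.6% (51.3 to 59.9) and 85.2% (80.9 to 88.8) in WT HDM. The shares of cKO and WT did not overlap, and replicates of a group differed by more than their counting intervals. Under PBS the shares rest on 0 and 4 reads in cKO and 7 and 11 reads in WT and cannot be placed. The sum of both genes was 334 ± 159 normalized counts in cKO HDM, 391 ± 61.9 in WT HDM, 2.54 ± 3.59 in cKO PBS and 7.68 ± 3.28 in WT PBS (SD, n = 2 each). If each shared read was counted once, the sum does not depend on how such reads were split between the genes. Whether they were counted so is not stated in the labels. That sum differed between the HDM groups by less than the spread between the cKO HDM libraries. The share is a description with no test. In the limma fit over all 8 libraries described above, the difference between genotypes under HDM passed for neither gene, and for Chil3 it passed under the other settings given with it.

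The 8 listed goblet cell markers summed to 1901 and 4451 normalized counts in cKO HDM, 2391 and 1390 in WT HDM, 459 and 982 in cKO PBS, and 360 and 205 in WT PBS. The second cKO HDM library was the highest and the second WT HDM library the lowest of the HDM libraries in both this sum and Chil4. Clca1 made up most of the sum and had that order, with 1565 and 3287 normalized counts in cKO HDM and 1884 and 1104 in WT HDM. Fcgbp had it as well, with 284 and 895 in cKO HDM and 371 and 162 in WT HDM. Muc5ac did not have it, with 31.9 and 103 in cKO HDM and 62.0 and 37.4 in WT HDM. Tff2 did not either, with 7.98 and 86.4 in cKO HDM and 22.2 and 11.6 in WT HDM. Agr2 also lacked it, with 6.53 and 46.5 in cKO HDM and 26.7 and 52.9 in WT HDM. So did Spdef, with 5.81 and 26.6 in cKO HDM and 9.78 and 21.9 in WT HDM. Gp2 had 0 and 6.64 in cKO HDM and 5.22 and 0 in WT HDM. Foxa3 had reads in the first WT HDM library alone, while Muc5ac, Clca1, Agr2, Fcgbp, Tff2 and Spdef were detected in both cKO HDM libraries. The part of goblet cell transcripts in the Chil4 results was not tested.

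Counted by comparison, 2 of the 4 genes rose in cKO (Chia1 and Chil4), beside 0.0532% of all genes, and 4 of 4 rose in WT, beside 0.506%. Between genotypes 1 of 4 fell under HDM (Chil1), beside 0.519%, and 0 of 4 changed under PBS, where limma, edgeR and DESeq2 each called 0 of 7512 genes and 523 (6.96%) reached an unadjusted limma p of 0.05. The interaction called 0 of 4 with limma and edgeR and 1 with DESeq2, beside 0.0266% of all genes with limma, and 584 genes (7.77%) reached an unadjusted limma p of 0.05. The comparisons share libraries: HDM against PBS and cKO against WT use the same HDM groups, so their calls are not independent. These counts rest on single libraries, and calls over all genes moved with the library left out as well. In WT the count was 3 with either cKO HDM or the second WT PBS library left out, 2 with the first WT HDM library left out, and 1 (Chil1) with the second WT HDM or the first WT PBS library left out. In cKO it was 0 without the first WT HDM library or either cKO HDM library, and 4 without the second cKO PBS library. For cKO against WT under HDM it was 0 without the second WT HDM library or either cKO HDM library, and 2 (Chil1 and Chil3) without either cKO PBS library. With both the second WT HDM and the first cKO PBS library left out, the counts were 2 in cKO, 4 in WT, 4 averaged, 1 for cKO against WT under HDM, and 0 under PBS and for the interaction. Without a trend in the variance 0 of the 4 passed in cKO and 0 in WT, and with a pseudocount of 0.2 the counts were 0 in cKO and 2 in WT. Over all genes, calls for HDM in WT fell as well, from 39 to 1 without a trend and to 16 with a pseudocount of 0.2. The fall in WT was thus not particular to these 4 genes.

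**Figure D4:**
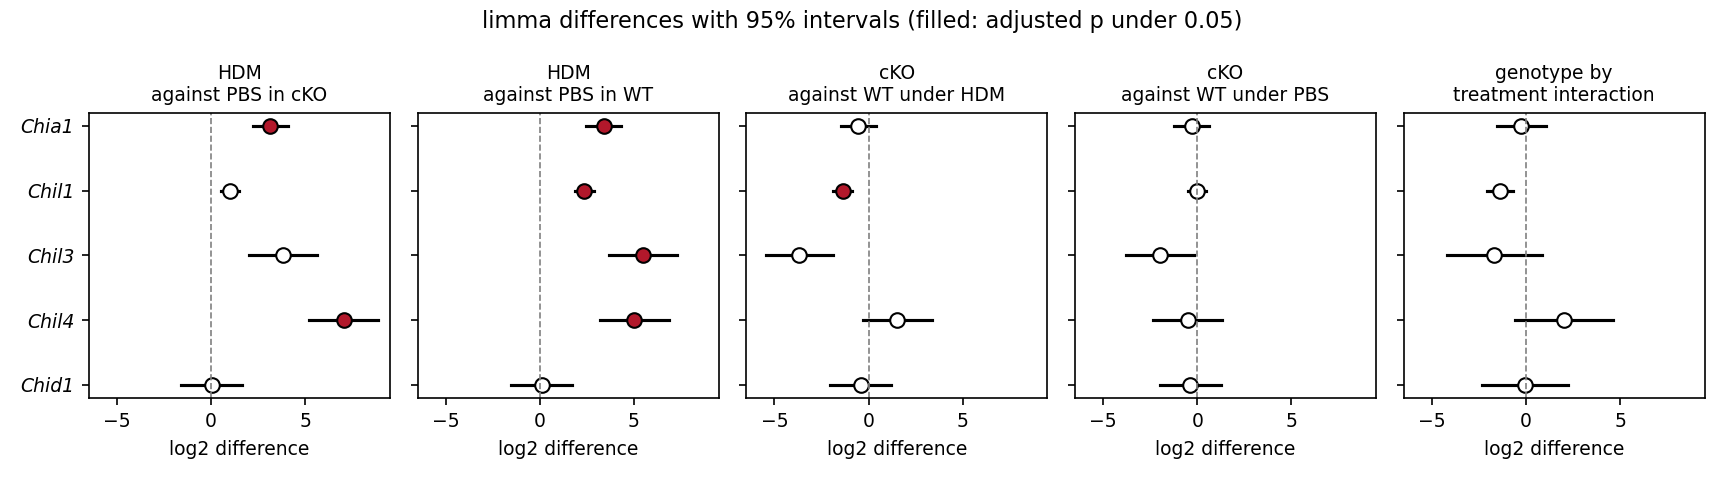
Log2 differences with 95% intervals from limma for the 4 genes and Chid1, in 5 comparisons on the log2(normalized count + 1) scale, filled where the adjusted p was under 0.05. HDM against PBS is positive for the 4 genes in each genotype, cKO against WT under HDM is negative for Chil1 (-1.38) and Chil3 (-3.67) and positive for Chil4 (1.52), and no interval of Chid1 leaves 0 out.

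The make-up of the family changed with HDM. Per kilobase of transcript, a scale on which genes can be compared, Chil1 made up 45.1% and 40.8% of the summed level of the 4 genes in cKO HDM, 61.0% and 60.1% in WT HDM, 92.1% and 84.1% in cKO PBS, and 86.9% and 82.1% in WT PBS. Chil4 made up 20.2% and 40.5% in cKO HDM, against 9.58% and 3.0% in WT HDM, and Chil3 3.40% and 1.16% in cKO HDM, against 12.0% and 17.2% in WT HDM. Chia1 had 31.3% and 17.6% in cKO HDM and 17.4% and 19.7% in WT HDM, where the groups overlapped. All 4 genes together took 0.283% and 0.312% of all reads in cKO HDM, 0.471% and 0.596% in WT HDM, 0.0649% and 0.0895% in cKO PBS, and 0.0731% and 0.0907% in WT PBS. By mean level per kilobase, the order in cKO HDM was Chil1 (280), Chil4 (203), Chia1 (157) and Chil3 (14.4), and in WT HDM it was Chil1 (738), Chia1 (229), Chil3 (183) and Chil4 (70.9). In cKO HDM the libraries of Chil4 overlapped with those of Chil1 and of Chia1, as did those of Chia1 and Chil3 in WT HDM, so those neighbours are not placed beyond their spread. Under PBS Chil1 (141 in each genotype) was far above Chia1 (18.5 in cKO PBS and 21.5 in WT PBS), and Chil3 and Chil4 were near the floor.

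Of 6 further members listed, Chid1, a lysosomal and secreted member with a chitinase-like domain, was the only one with a mean high enough to be tested. It stood at 12.3 and 19.9 normalized counts in cKO HDM, 13.0 and 34.8 in WT HDM, 26.0 and 8.89 in cKO PBS, and 19.1 and 20.9 in WT PBS, and its HDM difference averaged over genotypes was 0.06 ± 0.54 (limma adjusted p = 0.98). Chit1, chitotriosidase, the other active chitinase, and Chil6 had 0 reads in every library. Chil5 and Ovgp1, the oviduct glycoprotein, had reads in no more than 2 libraries, with means of 0.846 and 0.287 normalized counts over all libraries. Ctbs, a lysosomal enzyme that trims glycans, had a mean of 5.83. Chil5, Chil6 and Ovgp1 lie in the same stretch of chromosome 3 as Chia1, Chil3 and Chil4, and Chit1 lies next to Chil1 on chromosome 1. Pifo, the 1 further protein-coding gene in that stretch of chromosome 3, in RefSeq, stood at 0.02 ± 0.40 for HDM averaged over genotypes (limma adjusted p = 0.993).

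Genes that act before or after the chitinases were listed as well. Of 14 genes of IL-4 and IL-13 signalling 8 were tested and 0 passed in any of the 6 comparisons, and Il4 and Il13 had 0 reads in every library. Over all genes no more than 0.519% passed in 1 direction of any comparison, so 0 of 8 does not set this list apart. The median of the 8 for HDM averaged over genotypes was 0.67, against 0.04 for all genes. Cish, a feedback inhibitor of cytokine signalling, stood at 2.75 ± 0.83 (limma adjusted p = 0.294) and Il13ra1, a receptor chain for IL-13, at -0.70 ± 0.24 (limma adjusted p = 0.397). Stat6, the factor that carries the IL-4 and IL-13 signal, stood at 82.7 and 99.7 normalized counts in cKO HDM, 117 and 155 in WT HDM, 120 and 52.1 in cKO PBS, and 78.8 and 151 in WT PBS, and its HDM difference was 0.25 ± 0.30 (limma adjusted p = 0.842). Of 13 genes for chitin recognition or for receptors and partners of the chitinase-like proteins 4 were tested, Cd44, Lgals3, Ager and Reg3g. Ager, a receptor abundant on alveolar type 1 cells, fell in cKO against WT under HDM, at -1.69 ± 0.36 (limma adjusted p = 0.0455), as did 0.519% of all genes. No other call was made in this list. Il13ra2, a receptor that Chil1 is known to bind, had 0 reads in every library, and Tmem219, its partner, had a mean of 6.49 normalized counts and was not tested.

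Of 26 genes of the type 2 epithelial response 10 were tested. For HDM averaged over genotypes 3 of the 10 rose, beside 0.359% of all genes, and 0 fell, with a median of 1.96 against 0.04 for all genes. These were Clca1, a secreted protein of mucous cells, at 2.75 ± 0.32, Retnla, a small secreted protein of the type 2 response, at 2.72 ± 0.29, and Fcgbp, a mucus component, at 1.90 ± 0.33. In cKO 0 of the 10 passed, beside 0.0532% of all genes that rose, and in WT 4 rose, beside 0.506%, which were Clca1, Retnla, Slc26a4, an anion exchanger, and the alarmin Il33. The interaction passed for 0 of the 10, beside 0.0266% of all genes, with a median of -0.58 against 0.16 for all genes. For cKO against WT under HDM the list had a median of 0.22 and 0 passed, beside 0.519% of all genes that fell. The lists were fixed with earlier results of these data known, and no test of a list as a whole was made.

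The genes with the most similar profiles were sought over the 8 libraries on log2(normalized count + 1), as a description. Only genes tested, with a mean of 10 normalized counts or more, were searched. Macrophage markers below that mean, such as Mrc1 (9.65), Csf1r (7.52) and Ptprc (6.68), could therefore not appear. Chia1 ran with H2-K1 (r = 0.968), Fn1 (0.953), H2-D1 (0.951), Retnla (0.946) and Hsp90b1 (0.940). Chil4 ran with Fn1 (0.945), Eif1a and Atp2a2 (0.940 each), and Pla2g4c and H2-K1 (0.932 each), so that Fn1, fibronectin, and H2-K1, an MHC class I gene, were in the top 5 of both. Chil1 ran with Tnxb (0.983), Sftpd (0.970), Ctnnb1 (0.967), Col3a1 (0.966) and Cd74 (0.961). Of these, Sftpd, a surfactant protein, is on the alveolar type 2 list and Col3a1, a collagen chain, on the fibroblast and smooth muscle list. Tnxb had 0 reads in every PBS library and a mean of 10.4, which it reached through its WT HDM values of 18.9 and 52.9. Chil3 ran with Fstl1 (0.984), Sparc (0.960), Ctnnb1 (0.956), Vim (0.955) and Hmcn1 (0.955), which include Sparc and Vim, transcripts abundant in mesenchymal cells. Hmcn1 likewise had a mean of 10.4, reached through its WT HDM values of 24.8 and 33.5. Among the 4 genes themselves, r was 0.96 for Chil1 and Chil3, 0.90 to 0.92 for Chia1 with each of the others, 0.74 for Chil1 and Chil4, and 0.73 for Chil3 and Chil4. All points share the 4 groups of 2, 1 normalization and the contrast of HDM with PBS. Fibroblast and smooth muscle markers summed to 104 and 106 normalized counts in cKO HDM, 1219 and 1297 in WT HDM, 34.2 and 109 in cKO PBS, and 65.8 and 104 in WT PBS, with all 10 listed markers higher in mean in WT HDM than in cKO HDM. The 12 endothelial markers summed to 198 and 247 in cKO HDM, 1073 and 1061 in WT HDM, 337 and 215 in cKO PBS, and 243 and 247 in WT PBS. The part of either list in the Chil1 and Chil3 profiles was not tested.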

How the data were processed

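RNA was extracted from sorted cells and made into strand-specific libraries from a low input, per the labels' protocols. The deposited table gives, for each gene and library, a signal that is a read count divided by 1 factor per library, by the authors. HOMER, DESeq2 and mm10 are named per the submitters' processing notes. The aligner, annotation and strand setting are not stated in the labels, so antisense and near-identical genes may share reads.

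Every value was a whole multiple of its library's smallest value (100% within 0.01 reads), which recovered 232556 to 593200 reads per library. The test took the 7512 genes whose mean was 10 normalized counts or more, as log2(value + 1), with limma 3.58.1 in R 4.3.3, 1 mean per group over all 8 libraries, with a trend, two-sided, with Benjamini-Hochberg adjustment over all genes and a threshold of 0.05. The test was tried on simulated data. Alternatives were edgeR 4.0.16 and DESeq2 1.42.0 on the recovered reads, other pseudocounts, filters, scalings and variance models, a replicate block, fits of the compared groups only, and leaving out libraries. The members and lists were chosen with earlier results of these data known. Named genes were the members, the other family genes, the 5 best correlated genes per member (predicted and small RNA genes left out), called genes of each list, or the 2 with the smallest p, and Stat3 and Stat6. The list of type 2 genes had 1 symbol, Ear11, that did not match the table. Intervals of shares and ratios of reads are exact, at 95%, and made with scipy 1.17.1. Positions and transcripts are from GENCODE M21 and promoters from RefSeq, both on mm10 (GRCm38).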

Additional observations from a re-analysis of the deposited data

How the results depend on the processing

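With the replicate number as a block the counts of the 4 genes past the threshold were 4 (HDM in WT), 2 (HDM in cKO), 4 (HDM averaged), 1 (cKO against WT under HDM), 0 (under PBS) and 0 (interaction), as without it. Same-numbered libraries did not deviate together (r from -0.02 to 0.02 between groups), so the numbers were not taken as pairs, and the block changed no call. For HDM in WT 2 genes passed with a pseudocount of 0.2 and 0 without a trend in the variance, and 1 to 4 when single libraries were left out. For HDM in cKO 0 passed with a pseudocount of 0.2, without a filter on low values, without a trend or in a fit of only the groups compared, and 0 to 4 with single libraries left out. For HDM averaged over genotypes 2 passed without a trend. For cKO against WT under HDM 2 passed with a pseudocount of 5, quantile normalization, library weights, only the groups compared, edgeR or DESeq2, 0 without a filter or a trend, and 0 to 2 with single libraries left out. For the interaction 1 passed with DESeq2. Calls over all genes moved with the settings too, for HDM in WT from 39 to 1 without a trend and to 16 with a pseudocount of 0.2. Why these settings changed the counts was not tested.

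No direction turned for HDM against PBS or for cKO against WT under HDM in any of these alternatives. Directions turned only where the difference in the main fit was smaller than its standard error, such as -0.51 ± 0.86 for Chil4 in cKO against WT under PBS. For cKO against WT under PBS, Chil4 was 0.96 with quantile normalization and Chil1 0.00 with DESeq2. Without the second WT HDM and first cKO PBS libraries together, chosen after the data had been seen, Chia1, Chil1 and Chil4 were 0.34, 0.16 and 0.62 there, and with single libraries left out they ran from -0.93 to 0.34, -0.19 to 0.16 and -1.65 to 0.62. The interaction of Chia1 ran from -0.89 to 0.38 with single libraries left out. Where a group was left with 1 library, that library was assumed to vary like the others. Over all genes, calls for HDM in WT numbered 39 with limma, 59 with edgeR and 134 with DESeq2, and for cKO against WT under HDM 43, 54 and 130. Leaving out the first or second cKO PBS library gave 52 or 312 calls for cKO against WT under PBS, against 0. Depth limits Chil3 and Chil4 under PBS, where groups held 1 to 12 reads.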
